A study of Mus musculus with 18 samples.

Results

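The interaction of a MEK inhibitor and an agonist anti-CD40 antibody was measured in pieces of MC38 tumours on 18 arrays, all of the arrays of the study. MC38 is a mouse colon carcinoma line. In every group these cells in Matrigel were injected subcutaneously into C57BL/6-Ly5.1 mice aged 6 to 12 weeks, and tumours were taken on day 22. The control group (5 tumours) received vehicle and a control antibody, and the anti-CD40 group (4 tumours) received vehicle and anti-CD40 Ab. The MEKi group (5 tumours) received GDC-0623 at 30 mg/kg each day for about 2 weeks together with the control antibody, and the MEKi/CD40 group (4 tumours) received both drugs. Antibodies were given on days 3, 5 and 7 of treatment and 1 day before sampling. Each array held RNA of a different animal.

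MEK is the kinase that activates ERK, the last kinase of a pathway that drives proliferation in many tumours. CD40 is a receptor on dendritic cells, macrophages and B cells, and its ligation raises their antigen presentation and IL-12 output, which in turn activates T cells. The question asked here was where both drugs together departed from what the single drugs add up to. The interaction of a gene is the log2 effect of MEKi in the presence of anti-CD40 Ab minus its log2 effect in the absence of the antibody. A positive value places MEKi/CD40 above the sum of both single effects, a negative value places it below, and 0 is additivity on the log2 scale. All signals below are log2 array signals, and all adjusted p-values come from limma with Benjamini-Hochberg adjustment over 45037 probe sets, called at 0.05.

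The piece of tissue held more than tumour cells, so fewer cells of a type and less RNA per cell cannot be told apart in these data. Of the epithelial markers, Epcam, Krt8, Krt18 and Vil1 had group means at background (below 3) in all 4 groups, and Cdh1 read between 5.25 and 6.45. Macrophage, fibroblast, T cell and endothelial markers (Adgre1, Pdgfra, Cd3e and Pecam1) were measured in all groups. Over all arrays, 51.3% of values lay below 3, the level counted as background here. Fat and muscle signal differed between tumours of the combination group and is given with the results it touches.

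The interaction was called for 1191 of 45037 probe sets (2.64%), 479 positive (1.06%) and 712 negative (1.58%), and 6634 had an unadjusted p under 0.05. In the same model 3626 probe sets (8.05%) were called for MEKi against control, 3 (0.00666%) for anti-CD40 Ab and 9698 (21.5%) for MEKi/CD40. By gene, with 1 probe set for each of 18193 genes, 175 had a positive interaction (0.962%) and 275 a negative one (1.51%). Of the 450 called genes (2.47%), 368 were called for neither drug alone, 80 were called for MEKi against control (10.9% of all genes) and 2 for anti-CD40 Ab against control (0.011%). The positive interactions were the larger ones: their median size was 0.99 on the log2 scale against 0.53 for the negative ones, and 87 of them but 37 of the negative ones reached 2-fold. Among genes with every group mean at 5 or more the medians were 0.69 and 0.52. With a separate variance for each group, an alternative added after values had been seen, 147 of the 1191 probe sets were called, and of the named genes Clec3b, Tnxb, Apol11b, Nptx1 and Il6st kept their calls while the other called genes named here lost theirs.

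The calls also depend on a number in the sample titles. Titles carry a 4-digit number whose meaning the labels do not give, and it falls into 3 ranges when split at its widest gaps. The first range held all 4 anti-CD40 tumours with MEKi 1 and 2, the second all 4 MEKi/CD40 tumours with control 1 and 2, and the third 3 control and 3 MEKi tumours. The first range thus holds single-drug tumours and the second control and combination tumours, so that over these 12 tumours the range and the interaction cannot be told apart. With a block for the 3 ranges, added after values had been seen, the interaction is still estimated by way of the third range, with a standard error 2.15 times as large before moderation. In that fit 16 probe sets were called (11 positive, 5 negative), 2 of them among the 1191, and 2713 had an unadjusted p under 0.05. All 24 leading genes kept their sign, at 3.85 to 7.00 for the positive and -4.45 to -0.49 for the negative ones. Of all called genes named here Clec3b alone was called (7.00 ± 0.94, adjusted p = 0.0246), and the next, Tnxb, had 6.79 ± 1.13 (adjusted p = 0.0965). Among these 24 the interactions of Slc4a4 (-0.49), Amigo2 (-0.63), Tead4 (-1.07), Il12b (-1.19) and Crabp1 (-1.36) were smaller than without the block by over 1.5 times. Calls given below are those of the fit without this block.

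**Figure D1:**
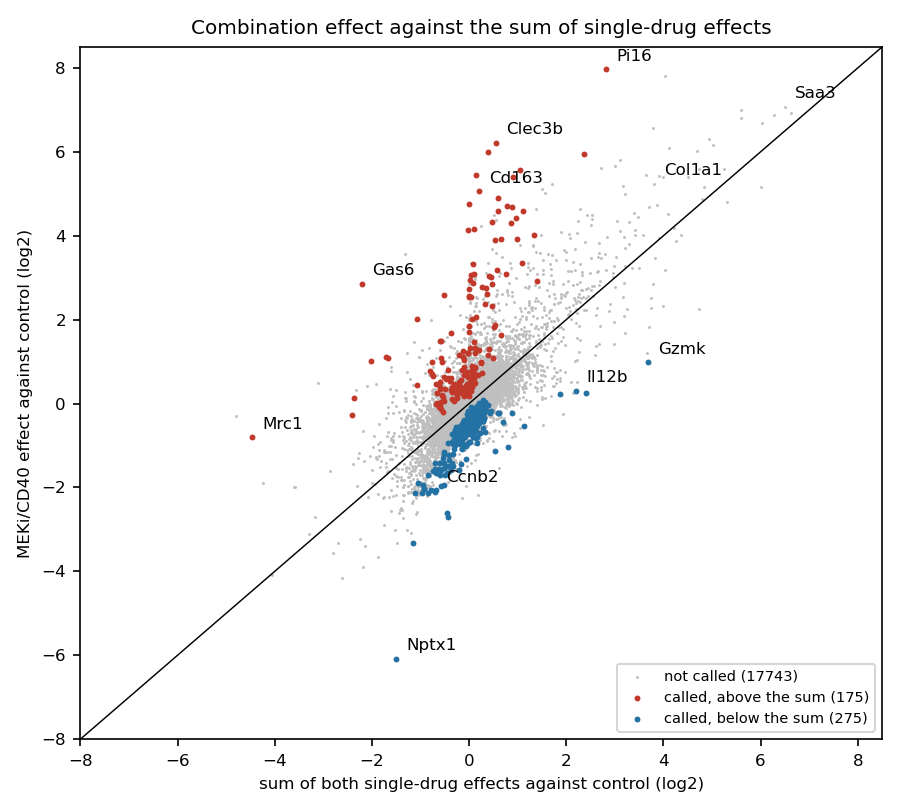
Each point is a gene, with the sum of both single-drug effects against control on the horizontal axis and the MEKi/CD40 effect against control on the vertical axis (both log2). Points on the diagonal are additive. The 175 red genes lie above it and the 275 blue genes below it, while Saa3 (0.58 above it) and Col1a1 (1.44 above it) were not called.

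The position of the combination group among the 4 group means was also described. Of the 175 positive genes, 168 (96%, beside 60.5% of all genes with a positive value) had their highest mean in MEKi/CD40 and 7 lay within the range of the other groups. Of the 275 negative genes, 268 (97.5%, beside 53.3% of all with a negative value) had their lowest mean there and 7 lay within the range. Since the same means make up the interaction, these counts describe its shape and test nothing. When group means were compared in signal units in place of log2 units, all 175 and all 275 kept their sign. For a positive gene with its highest mean in MEKi/CD40 this sign is all but fixed by the log2 result. It is therefore no separate support for the positive genes. For 53 of the positive genes the other 3 group means were all below 4, where a small single-drug effect could be hidden by the floor of the array.

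Most of the largest positive interactions belonged to genes at background in control tumours and bright in all 4 tumours given both drugs. Clec3b, which encodes the plasminogen-binding protein tetranectin, read 2.46 to 2.48 in the 5 control tumours and 2.48 in all 4 anti-CD40 tumours. With MEKi it read 2.72, 4.47, 2.95, 2.48 and 2.49, and with MEKi/CD40 8.07, 8.87, 9.38 and 8.43. The combination tumours stood apart from every other tumour. The interaction was 5.66 ± 0.48 (SE, adjusted p = 0.000106), and it was called in all 18 fits that left out 1 array.

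Tnxb, the matrix protein tenascin-X, followed the same course. It read 2.23 in the 5 control tumours, 2.16 to 2.23 with anti-CD40 Ab and 2.23, 4.07, 2.41, 2.23 and 2.26 with MEKi. With MEKi/CD40 it read 7.15, 9.01, 8.72 and 8.02, again without overlap. The interaction was 5.60 ± 0.54 (adjusted p = 0.000284).

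Pi16, a peptidase inhibitor that marks adventitial and universal fibroblasts, differed in that most tumours given MEKi alone already read above control (adjusted p = 0.0497). It read 3.10, 2.43, 2.48, 3.10 and 3.10 in control tumours, 3.27, 3.15, 3.90 and 2.87 with anti-CD40 Ab, and 2.48, 7.73, 5.90, 4.88 and 5.02 with MEKi. The combination tumours read 10.89, 10.47, 11.80 and 10.09. Single effects of 0.46 and 2.36 added up to 2.82, against a combination effect of 7.97. The interaction was 5.16 ± 1.03 (adjusted p = 0.0189). A second probe set of Pi16 had 0.04 and was not called.

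Other matrix and stromal genes among the 12 largest were Pcolce2, an enhancer of procollagen cleavage (interaction 4.14), and Smoc2, a secreted matricellular protein (4.29). Ndn, the growth suppressor necdin, had 4.50. Efhd1, a calcium-binding protein of mitochondria, had 4.05, Apol11b of the apolipoprotein L family 4.52, and Mbp, myelin basic protein, 5.29. Combination means of these 6 genes were 6.32 to 8.28 and their control means 2.16 to 2.87. The 4 Mbp values with MEKi/CD40 spread widely, at 5.15, 10.30, 8.87 and 6.07, and only 1 of the 8 probe sets of Mbp was called. Of the 8 probe sets of Ndn 4 were called. The interaction of all 12 largest genes stayed positive in every alternative in which it was fitted, but its size and call depended on the floor. With values under 5 raised to 5, 7 of the 12 were called and values ran from 1.32 to 5.08. The 5 that lost the call were Cd163 (2.27, adjusted p = 0.141), Smoc2 (2.095, adjusted p = 0.154), Efhd1 (1.32, adjusted p = 0.125), Mbp (2.60, adjusted p = 0.299) and Retnla (2.01, adjusted p = 0.551).

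Gas6, the ligand of the TAM receptor kinases, was measured well in all groups and showed what a departure from the sum looks like away from the floor. It read 7.86, 6.47, 6.92, 7.05 and 7.04 in control tumours, 3.82, 5.56, 7.15 and 6.19 with anti-CD40 Ab, and 5.24, 7.14, 5.59, 6.77 and 6.49 with MEKi. With MEKi/CD40 it read 8.64, 9.56, 11.20 and 10.29, above every other tumour. The single effects were -1.39 and -0.82, neither called, and the combination effect was 2.85 (adjusted p = 0.0043). The interaction was 5.06 ± 0.90 (adjusted p = 0.0123). A second probe set of Gas6 had 0 and was not called. Mertk, a receptor of Gas6, had an interaction of 1.83 that was not called (adjusted p = 0.117).

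**Figure D2:**
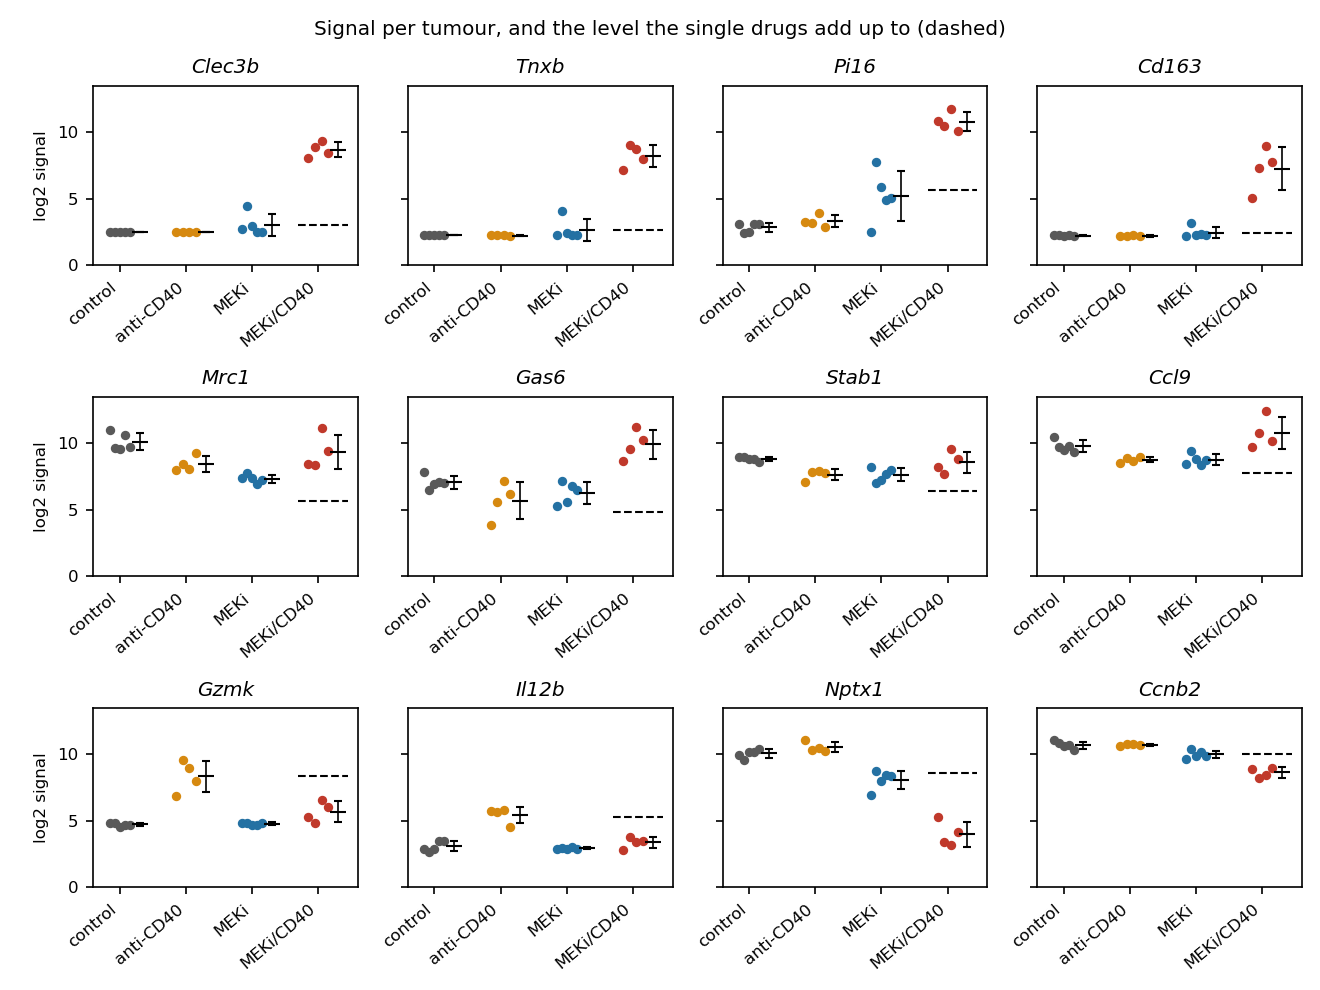
Log2 signal (vertical axis) of 12 genes in each of the 18 tumours (points) by group (horizontal axis), with the mean and SD of each group as a horizontal tick with an error bar. The dashed line beside MEKi/CD40 is the level that both single effects add up to. MEKi/CD40 tumours lie above the line for the first 8 genes and below it for Gzmk, Il12b, Nptx1 and Ccnb2.

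Macrophage genes linked to tissue repair and scavenging formed the list with the highest median interaction. Of its 16 measured members 4 had a called positive interaction (Mrc1, Cd163, Retnla and Stab1) and none a negative one, and 12 did not pass. Called or not, 13 members had a positive value and 2 a negative one, the lowest at -0.85. The list median was 2.09, beside 0 over all genes and -0.06 over the 9620 genes with every group mean at 5 or more. Over all alternatives the list median stayed between 1.71 and 2.46. Among genes with every group mean at 5 or more, 1.19% were called positive and 2.77% negative. Over all 18193 genes, 0.962% were called positive and 1.51% negative, and 7000 values were positive and 8646 negative. These shares are the base for the list counts below.

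Cd163, the scavenger receptor for haemoglobin bound to haptoglobin, was at background in all control and anti-CD40 tumours (2.16 to 2.24). MEKi tumours read 2.16, 3.13, 2.24, 2.34 and 2.26. MEKi/CD40 tumours read 5.06, 7.32, 8.97 and 7.73. The interaction was 4.87 ± 0.74 (adjusted p = 0.00578). Retnla, a secreted protein of alternatively activated macrophages, stood at the lowest value of the table (2.16) in all 14 tumours of the other groups and at 4.63, 10.22, 5.31 and 7.52 with MEKi/CD40. Its interaction of 4.76 (adjusted p = 0.0357) was not called in 12 of the 18 fits that left out 1 array, with adjusted p-values of up to 0.066.

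Mrc1, the mannose receptor CD206, had a different shape. It read 11.00, 9.65, 9.58, 10.65 and 9.76 in control tumours and 8.02, 8.44, 8.09 and 9.31 with anti-CD40 Ab. With MEKi it fell to 7.37, 7.76, 7.40, 6.92 and 7.20, a change of -2.80 (adjusted p = 0.0043). The anti-CD40 effect was -1.66 and was not called (adjusted p = 0.62). With both drugs it read 8.43, 8.36, 11.15 and 9.39, overlapping the control tumours, and the difference from control was -0.80 (adjusted p = 0.35). The single effects added up to -4.46, so that the interaction was 3.67 ± 0.72 (adjusted p = 0.017).

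Stab1, a scavenger receptor of the same macrophages and of sinusoidal endothelium, repeated this shape at a smaller scale. Control tumours read 8.62 to 8.99, anti-CD40 tumours 7.07 to 7.91 and MEKi tumours 7.01 to 8.18. MEKi/CD40 tumours read 8.22, 7.70, 9.55 and 8.81. The interaction was 2.14 ± 0.46 (adjusted p = 0.0281). It was lost (adjusted p of up to 0.059) on leaving out control 2, control 3, anti-CD40 1, MEKi 2 or MEKi 4. Of 15 genes of macrophages in general 0 were called, with a median of 0.39, and Adgre1 (F4/80) had 0.29. Among the other members of the repair list, Lyve1 had 3.60 (adjusted p = 0.0652), Clec10a 2.46 (adjusted p = 0.057) and Arg1 2.05 (adjusted p = 0.204), none of them called.

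Of 29 chemokine ligands 2 were called, both positive, beside 0.962% of all genes called positive. Ccl6 read 8.63 to 9.48 in control, 8.08 to 9.23 with anti-CD40 Ab and 8.76 to 10.27 with MEKi. With MEKi/CD40 it read 11.62, 11.98, 13.48 and 11.92, above all other tumours (interaction 3.25 ± 0.55, adjusted p = 0.0099). Ccl9 had means of 9.77 in control, 8.77 with anti-CD40 Ab and 8.75 with MEKi (neither single effect called) and read 9.70, 10.80, 12.45 and 10.15 with both (interaction 3.03 ± 0.61, adjusted p = 0.0191). Both are CC chemokines of myeloid cells. The list median of 0.60 ranged from 0.21 without MEKi/CD40 3 to 0.87 without the 3 arrays highest in adipocyte genes. Cxcl9, a chemokine that attracts T cells, had no called interaction: anti-CD40 Ab gave 1.82, MEKi -0.59 and both 1.44 (interaction 0.21, 95% interval -1.20 to 1.62). This interval holds interactions of over 2-fold in either direction, and with the block for the 3 title number ranges the value was 1.76.

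Fibroblast and matrix genes were raised by MEKi in 12 of 21 cases (5.46% of all genes) and by MEKi/CD40 in 19 of 21 (11.6%), with few called interactions. Of the 21 members 2 had one (Pi16 and Col5a1), 19 had a positive value, and the median was 0.54. Col5a1, a fibrillar collagen chain, read 12.12 to 12.68 in control, 12.32 to 12.65 with anti-CD40 Ab, 12.54 to 13.22 with MEKi and 13.61 to 14.02 with MEKi/CD40 (interaction 0.90 ± 0.20, adjusted p = 0.0288). It lost its call in 7 of the 18 fits without 1 array. For Col1a2 the estimate lay close to the sum: MEKi gave 2.78, anti-CD40 Ab 0.44 and both 3.27 (interaction 0.05, 95% interval -1.09 to 1.19). Its interval also holds interactions of over 2-fold in either direction. For Col1a1 the sum was 3.81 and the combination effect 5.25, and its interaction of 1.44 was not called (95% interval 0.02 to 2.86, adjusted p = 0.328).

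Col14a1 and Prxl2b were lowered by MEKi alone and raised by the combination. Col14a1, a collagen that binds fibrils, had means of 9.45 in control, 9.41 with anti-CD40 Ab, 7.77 with MEKi (adjusted p = 0.006 against control) and 10.56 with MEKi/CD40. Against control the combination effect was 1.11 (adjusted p = 0.023), and the interaction was 2.83 ± 0.46 (adjusted p = 0.00843). Prxl2b, a peroxiredoxin-like enzyme, had 6.92, 6.76, 5.41 and 8.00 in the same order, with MEKi lower than control (adjusted p = 0.0046), the combination higher (adjusted p = 0.011) and an interaction of 2.74 ± 0.39 (adjusted p = 0.00438). Both belong to genes picked by a rule for well measured genes that was added after values had been seen.

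Acute phase and complement genes had mostly positive interactions and few calls. The acute phase list had a median effect of 0.22 with anti-CD40 Ab, 0.40 with MEKi and 1.15 with both, and 19 of its 20 interactions were positive (median 0.59). The complement list had 0.32, 0.29 and 1.36. Of 20 acute phase genes 1 was called (Il6st, the shared signalling chain of IL-6 family receptors, 0.77 ± 0.14, adjusted p = 0.0137), and of 12 complement genes 0, although all 12 values were positive (median 0.53). Of the 4 probe sets of Il6st 1 was called, and values ran from 0.32 to 0.84. Saa3, an acute phase protein of macrophages and stroma, had means of 5.87, 8.88, 9.36 and 12.95 in control, anti-CD40, MEKi and MEKi/CD40 tumours. Its single effects of 3.01 and 3.48 added up to 6.49 against 7.08 measured (interaction 0.58, 95% interval -2.17 to 3.34). With the block for the 3 title number ranges the interaction of Saa3 changed sign, to -2.38 ± 2.81. Serping1, the C1 inhibitor, had a sum of 6.03 and a combination effect of 6.68 (interaction 0.65, 95% interval -1.11 to 2.41). Interactions of over 2-fold in either direction lie within both intervals. Lbp, the lipopolysaccharide-binding protein, is an acute phase gene outside the list, chosen after its values were seen. It had means of 4.01, 4.37, 6.00 and 9.96 in the same order, and its interaction of 3.59 ± 0.63 (adjusted p = 0.0119) was called in all 18 fits without 1 array. A second probe set of Lbp had 1.04 and was not called.

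Genes with their highest level after anti-CD40 Ab alone led the negative side among immune genes. Gzmk, a granule protease of memory-like CD8 and NK cells, read 4.55 to 4.85 in control tumours and 4.64 to 4.85 with MEKi. With anti-CD40 Ab it rose to 6.86, 9.54, 8.96 and 7.99, a change of 3.63 (adjusted p = 0.015). With both drugs it read 5.30, 4.85, 6.59 and 6.01, lower than with anti-CD40 Ab alone by 2.65 on the log2 scale (adjusted p = 0.00076) and without overlap. The interaction was -2.70 ± 0.61 (adjusted p = 0.0337), and it was lost in 11 of the 18 fits without 1 array, with adjusted p-values of up to 0.068.

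Il12b, the p40 subunit of IL-12 and IL-23, is produced by dendritic cells and macrophages after CD40 ligation. It read 2.66 to 3.47 in control tumours, 5.71, 5.67, 5.78 and 4.53 with anti-CD40 Ab, and 2.85 to 3.03 with MEKi. MEKi/CD40 tumours read 2.79, 3.79, 3.42 and 3.48, close to control and below every anti-CD40 tumour. The anti-CD40 effect was 2.36 (adjusted p = 0.012), the difference of both drugs from anti-CD40 Ab alone was -2.05 (adjusted p = 0.00012) and the interaction was -1.89 ± 0.37 (adjusted p = 0.0173). Its call held in all 18 fits without 1 array, but control and MEKi tumours were at background, where a fall with MEKi could not be seen, and with values under 5 raised to 5 the interaction was -0.54 (adjusted p = 0.11). A second probe set of Il12b had -1.05 and was not called. Gzmk and Il12b are the 2 genes called for anti-CD40 Ab alone. Neither was called when anti-CD40 and control tumours were fitted by themselves (adjusted p = 0.247 and 0.234).

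Spn, the leukocyte sialoglycoprotein CD43, read 8.17 to 8.73 with anti-CD40 Ab (adjusted p = 0.13 against control), 6.79 to 7.61 with both drugs and 6.36 to 7.86 in control. Its interaction of -1.63 (adjusted p = 0.0468) was lost in 15 of the 18 fits without 1 array. Of the 17 T cell genes 0 were called, 15 were negative and the median was -0.55. Cd8a had 6.54, 8.08, 7.21 and 7.57 in control, anti-CD40, MEKi and MEKi/CD40 tumours, an interaction of -1.19 (95% interval -2.76 to 0.38). The median over all alternatives ran from -1.03 to -0.21 and was -0.27 without the 3 arrays highest in adipocyte genes. Of the 18 cytotoxic genes only Gzmk was called, 12 were negative and 6 positive, and the median was -0.49. The largest value in that list was that of Gzmd, a granzyme, at 4.51 ± 2.09 (adjusted p = 0.334). Gzmb had -0.48, Ifng -0.10 and the checkpoint ligand Cd274 0.70, and none of them passed.

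The largest negative interaction was that of Nptx1, a neuronal pentraxin. Control tumours read 9.95, 9.57, 10.18, 10.19 and 10.44 and anti-CD40 tumours 11.10, 10.33, 10.51 and 10.23. With MEKi it fell to 6.95, 8.71, 7.98, 8.42 and 8.34 (change -1.99, adjusted p = 0.0081). With MEKi/CD40 it reached 5.26, 3.40, 3.13 and 4.13, below every other tumour. The interaction was -4.58 ± 0.59 (adjusted p = 0.00296) and was called in all 18 fits without 1 array. A second probe set of Nptx1 had -1.67 and was not called.

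A group of other genes was called lower with both drugs and with neither drug alone. Tead4, a DNA-binding partner of YAP, had means of 6.35, 6.54, 5.72 and 3.65 in control, anti-CD40, MEKi and MEKi/CD40 tumours. Kcne3, a potassium channel subunit, had 7.25, 6.62, 6.72 and 3.92. Coq8a, which acts in coenzyme Q synthesis, had 9.40, 9.57, 8.76 and 6.79, and Amigo2, an adhesion protein, 8.44, 8.41, 7.95 and 6.49. Their interactions were -2.27, -2.17, -2.15 and -1.43. Second probe sets of Tead4, Coq8a and Amigo2 had -0.06, -0.22 and 0 and were not called. Tead4 and Coq8a each lost the call in 14 of the 18 fits without 1 array, Amigo2 in 6 and Kcne3 in none. With values under 5 raised to 5, Kcne3 had -1.09 (adjusted p = 0.125) and Tead4 -0.93 (adjusted p = 0.368), and 5 of the 12 leading negative genes were called.

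A further shape was a rise with MEKi alone that was absent with both drugs. Crabp1, a retinoic acid binding protein, rose from 3.16 to 5.11 with MEKi (adjusted p = 0.0059) and stood at 3.42 with both (interaction -2.15, adjusted p = 0.0475). Slc4a4, a bicarbonate transporter, had 7.75 in control, 8.30 with MEKi and 6.71 with both (interaction -1.82). Only 1 of the 5 probe sets of Slc4a4 was called, and the highest value was -0.01. Apol8 had 10.17, 10.79 and 9.62 (interaction -1.68), and Ankrd37, a hypoxia-induced gene, 9.30, 9.98 and 8.18 (interaction -1.66), although the MEKi effect was not called in these 3. Apol8 also read above control with anti-CD40 Ab (mean 10.685, not called), so its rise was not particular to MEKi. Crabp1 lost its call in 15, Ankrd37 in 16 and Slc4a4 in 9 of the 18 fits without 1 array, and Apol8 in none.

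Cell division genes departed from the sum together and by less than 2-fold at the median. All 29 measured members of the mitosis list had a negative interaction (median -0.86, range -1.38 to -0.35), and 4 were called: Ccnb2, Bub1, Prc1 and Ube2c. Of the 9620 genes with every group mean at 5 or more, 5602 had a negative value and 2.77% were called negative. The same 29 were all called lower with MEKi/CD40 against control (15.9% of all genes) and with MEKi against control (5.4%), and the anti-CD40 median was -0.03. Over all alternatives the median stayed between -1.34 and -0.68, whereas the number of called members ranged from 0 with the block for title number ranges to 15 when arrays were weighted by their quality. Without the 3 arrays highest in adipocyte genes the median was -0.72 and 1 member was called.

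Ccnb2, cyclin B2, read 11.06, 10.83, 10.60, 10.67 and 10.32 in control and 10.60, 10.76, 10.79 and 10.72 with anti-CD40 Ab. It read 9.67, 10.39, 9.88, 10.16 and 9.87 with MEKi and 8.91, 8.20, 8.42 and 9.0 with both, below all other tumours. The interaction was -1.38 ± 0.26 (adjusted p = 0.0149). Bub1, a spindle checkpoint kinase, had means of 11.44, 11.50, 10.46 and 9.39 in control, anti-CD40, MEKi and MEKi/CD40 tumours (interaction -1.12, adjusted p = 0.0374, lost in 11 of the 18 fits without 1 array). Prc1, which bundles the microtubules of the central spindle, had 9.97, 9.97, 9.12 and 8.27 (interaction -0.85, adjusted p = 0.0184). Ube2c, the ubiquitin-conjugating enzyme of the anaphase-promoting complex, had 12.12, 12.12, 11.00 and 9.98 (interaction -1.02, adjusted p = 0.0472, lost in 14 of the 18 fits without 1 array). Anti-CD40 Ab alone moved none of the 4 by more than 0.06.

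Promoters of G2/M genes are known to share 2 short elements, the CHR (TTTGAA) and the CCAAT box. The promoters of these 4 called genes are shown because the genes moved together. They run from 250 bases before to 50 bases after the gene start in RefSeq on GRCm38.p6, at chr2:127831810-127832109 for Bub1 and chr9:70421505-70421804 for Ccnb2 on the minus strand, and at chr7:80294201-80294500 for Prc1 and chr2:164769679-164769978 for Ube2c on the plus strand. Capitals mark either element on either strand.
Bub1: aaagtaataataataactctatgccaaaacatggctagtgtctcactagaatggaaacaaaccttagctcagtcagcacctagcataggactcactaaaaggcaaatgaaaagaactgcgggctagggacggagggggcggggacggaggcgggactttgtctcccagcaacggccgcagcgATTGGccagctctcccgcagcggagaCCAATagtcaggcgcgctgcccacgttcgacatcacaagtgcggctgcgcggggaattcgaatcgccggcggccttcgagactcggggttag
Ccnb2: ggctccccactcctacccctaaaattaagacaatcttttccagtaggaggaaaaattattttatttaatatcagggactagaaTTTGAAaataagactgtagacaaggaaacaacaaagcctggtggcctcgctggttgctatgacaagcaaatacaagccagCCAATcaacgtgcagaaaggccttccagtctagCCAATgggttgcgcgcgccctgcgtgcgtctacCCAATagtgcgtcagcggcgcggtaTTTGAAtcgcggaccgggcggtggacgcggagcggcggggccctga
Prc1: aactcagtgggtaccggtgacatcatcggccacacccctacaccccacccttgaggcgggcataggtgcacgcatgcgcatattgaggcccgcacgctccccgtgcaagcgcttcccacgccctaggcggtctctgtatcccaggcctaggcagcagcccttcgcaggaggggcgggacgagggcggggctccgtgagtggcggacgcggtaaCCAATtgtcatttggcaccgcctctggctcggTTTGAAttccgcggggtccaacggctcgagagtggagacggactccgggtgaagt
Ube2c: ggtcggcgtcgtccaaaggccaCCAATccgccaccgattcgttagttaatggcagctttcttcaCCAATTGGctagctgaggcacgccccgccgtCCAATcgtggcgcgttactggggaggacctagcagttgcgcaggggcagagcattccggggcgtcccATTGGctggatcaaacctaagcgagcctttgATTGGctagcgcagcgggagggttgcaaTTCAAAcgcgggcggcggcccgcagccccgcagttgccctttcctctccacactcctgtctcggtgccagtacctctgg

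Ccnb2 held 2 CHR and 3 CCAAT matches, Prc1 1 and 1, Ube2c 1 and 6, and Bub1 0 and 2. Among the 24 mitosis genes with a promoter sequence, 70.8% held a CHR and 75% a CCAAT box, beside 13.4% and 38.4% of all 14452 promoters. Both elements were added after values had been seen, and the share reflects how the list was composed. Among 217 promoters of genes with a called negative interaction, 41% held the ETS core CCGGAA on either strand, beside 14.7% of 143 promoters with a positive one. The share was 22% of all promoters and 30.9% of the 7878 promoters of genes measured in all groups. AP-1 (TGANTCA) was found in 3.23%, 4.2% and 6.28% of negative, positive and all promoters. These matches are a description of letters and no evidence of binding.

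Several other lists gave few or no calls. Of 29 DNA replication genes 0 were called (median -0.40), and of 19 genes of the ERK output 0 (median -0.49), with Dusp6, a phosphatase induced by ERK, at -0.83 (adjusted p = 0.379). Of 17 genes of cholesterol synthesis 0 were called (median -0.46), led by Fdps with -1.85 (adjusted p = 0.146) and Msmo1 with -1.49 (adjusted p = 0.0687). Without the 3 arrays highest in adipocyte genes 6 of the 17 were called, and the median was -0.97. Of 13 heat shock genes 1 was called (Hspa4l, a chaperone of the HSP110 family, -1.05 ± 0.20, adjusted p = 0.0146). Of 22 genes of CD40 and NF-kB signalling 1 was called (Rela, 0.29), and Cd40 itself had 0.53 and was not called.

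**Figure D3:**
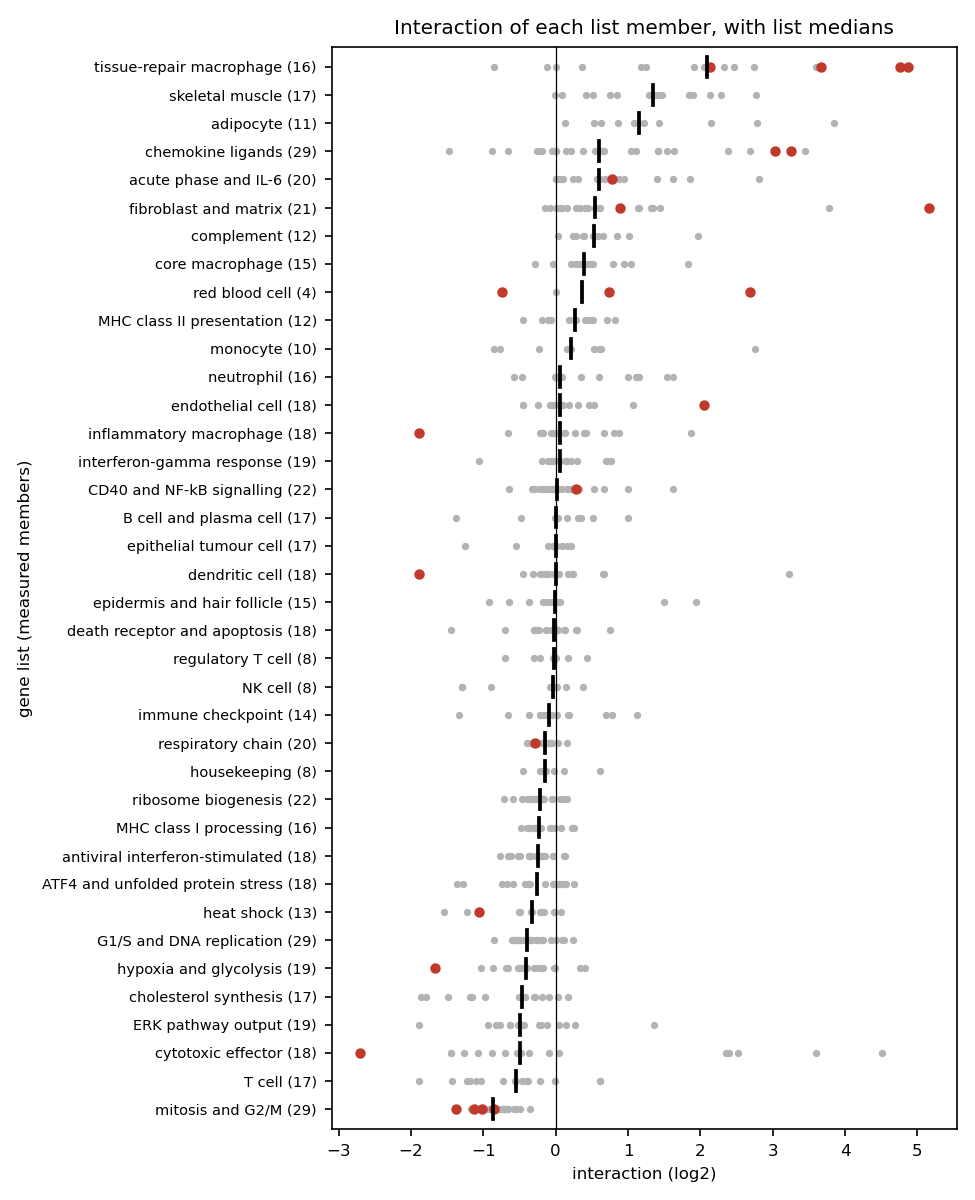
Interaction (log2, horizontal axis) of each measured member of 38 gene lists (vertical axis, with the number of members), called members in red and others in grey. The black bar is the list median. The tissue-repair macrophage list has the highest median (2.09) and the mitosis list the lowest (-0.86).

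Markers of tissue around the tumour and of blood are given as measured. Muscle signal was raised in MEKi/CD40 4 only. Fat signal was highest in MEKi/CD40 2 and MEKi/CD40 4. It also lay above all control tumours in MEKi/CD40 3, anti-CD40 3 and most MEKi tumours. The adipocyte score, the mean signal of 11 fat genes, was 3.94, 10.14, 5.22 and 6.38 in MEKi/CD40 tumours 1 to 4, and 3.33 to 3.95 in control, 3.18 to 5.53 with anti-CD40 Ab and 3.71 to 4.95 with MEKi. The score of 17 skeletal muscle genes reached 7.14 in MEKi/CD40 4 and was 2.58 to 3.09 in all other tumours. The skin score was 3.34 to 4.05 with MEKi/CD40, 3.22 to 4.11 with MEKi, 2.83 to 3.10 with anti-CD40 Ab and 2.85 to 3.14 in control. The red blood cell score was 4.04 to 4.70 with MEKi/CD40, 3.19 to 3.82 with MEKi and 3.25 to 3.29 in control. In the red blood cell list Alas2 (2.68, adjusted p = 0.0406) and Slc4a1 (0.73) were called positive and Hba-a2 (-0.74), whose probes may also bind RNA of a near-identical gene copy, negative. Alas2 lost its call in 14, Slc4a1 in 16 and Hba-a2 in 15 of the 18 fits without 1 array, and Alas2 was not called without the 3 arrays highest in adipocyte genes (adjusted p = 0.0987). Tek, an angiopoietin receptor, was the only called member of 18 endothelial genes (2.05, adjusted p = 0.0458, lost in 15 of the 18). Of 11 adipocyte and 17 muscle genes 0 were called, with medians of 1.16 and 1.34.

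When the 3 tumours scoring highest for fat genes were left out (MEKi/CD40 2, MEKi/CD40 4 and anti-CD40 3), the medians of the adipocyte and muscle lists were -0.09 and 0.00. Only MEKi/CD40 1 and MEKi/CD40 3 then remain of the combination group, and MEKi/CD40 3 had a fat score of 5.22, above all control and MEKi tumours. All 12 leading positive genes were still called in that fit, with interactions of 2.81 to 5.89, as were 7 of the 12 leading negative genes. All 4 called genes of the repair macrophage list were still called. Of these, Retnla fell from 4.76 to 2.81 and Cd163 from 4.87 to 4.63. Mrc1 rose from 3.67 to 4.00 and Stab1 from 2.14 to 2.54. Within the combination group the Retnla signal rose in the same order of tumours as the fat score (MEKi/CD40 1, 3, 4 and 2). A model of all arrays that also held the fat score gave 3.67 for Retnla. The 5 negative genes not called without the 3 tumours were Gzmk (adjusted p = 0.136), Crabp1, Slc4a4, Spn and Amigo2. The part of neighbouring tissue in single genes beyond these fits was not tested.

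**Figure D4:**
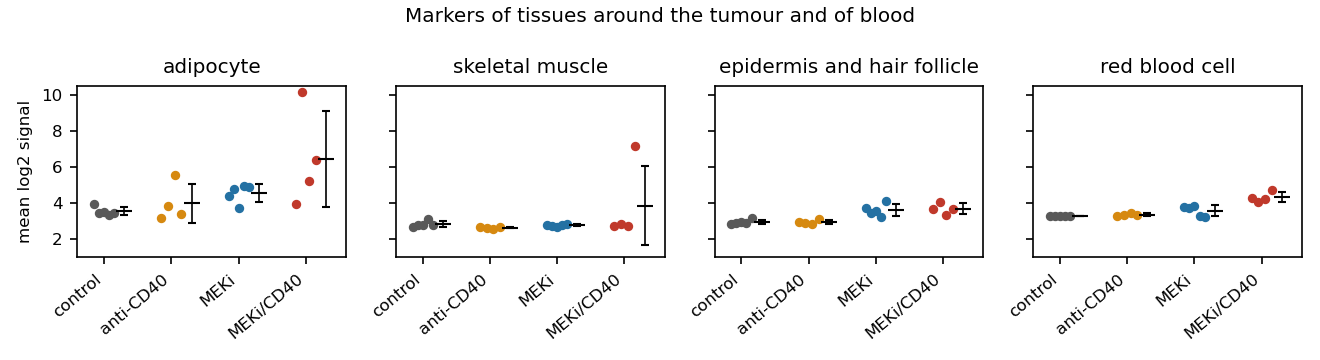
Mean log2 signal (vertical axis) of fat, skeletal muscle, skin and red blood cell genes in each tumour (points) by group (horizontal axis), with group mean and SD. MEKi/CD40 2 has the highest fat score (10.14) and MEKi/CD40 4 is the only tumour with a muscle score above 3.09.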

How the data were processed

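RNA of pieces of 18 tumours was hybridised to 1-colour Affymetrix Mouse430_2 arrays. The deposited values are log2 signal intensities, which the authors computed with RMA in Chipster (version not given in the sources used here). They have a floor at 2.16 (34.5% of values), a shape unlike plain RMA, so background correction may have differed. The number of arrays limits the precision. Groups came from the sample titles. Of 45101 probe sets 64 controls were left out. Of the rest, 34945 had 1 symbol, 932 several and 9160 none. A gene was represented by its probe set with the highest mean, passing over cross-hybridising sets. A 2-by-2 model of all arrays was fitted in limma 3.58.1 (R 4.3.3), two-sided, with 14 residual degrees of freedom. The members and gene lists were chosen with earlier results of these data known. Named were the 12 largest called interactions per direction (Riken-type symbols passed over), the 3 smallest p-values per list and 16 fixed genes. The 10 largest well measured genes per direction, Ube2c, Lbp and the CHR and CCAAT elements were added after values were seen. Lists carry no test. Promoters came from RefSeq (GRCm38.p6), with 14452 of 18193 genes matched. Tested on simulated data for the interaction (45037 probe sets), the fit recovered 72 of 100 changes of size 1 and 92 of 100 of size 2 (log2), with 5 false calls. The simulated noise had the same spread in all groups, no floor and no title number ranges. Changes were placed in probe sets with a mean of at least 5. The simulation thus checks the fit and gives no error rate for the calls in the measured data. Replicate numbers of the titles share only a number and pair no samples.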

Additional observations from a re-analysis of the deposited data

Results flagged for a closer look

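The MEKi effect differed by anti-CD40 Ab at 1191 probe sets, as tested by the interaction term. The leading positive differences (log2) were 5.66 for Clec3b, 5.60 for Tnxb, 5.29 for Mbp, 5.16 for Pi16, 5.06 for Gas6, 4.87 for Cd163, 4.76 for Retnla, 4.52 for Apol11b, 4.50 for Ndn, 4.29 for Smoc2, 4.14 for Pcolce2 and 4.05 for Efhd1. The leading negative ones were -4.58 for Nptx1, -2.70 for Gzmk, -2.27 for Tead4, -2.17 for Kcne3, -2.15 for both Coq8a and Crabp1, -1.89 for Il12b, -1.82 for Slc4a4, -1.68 for Apol8, -1.66 for Ankrd37, -1.63 for Spn and -1.43 for Amigo2.

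In 12 of 92 sets of group values that spanned more than 0.5, 1 tumour stood apart from the others of its group by Dixon's test. The test flags about 1 in 20 sets of independent, normally distributed values. Some flagged sets lay at or near the floor apart from 1 value, and the same tumours recur. The 12 therefore cannot be set against that rate. MEKi 2 stood above the other MEKi tumours in Clec3b (4.47), Tnxb (4.07), Mbp (2.91), Cd163 (3.13) and Ndn (4.95). Anti-CD40 3 stood above its group in Ndn (4.87) and Smoc2 (2.72), and anti-CD40 4 below it in Il12b (4.53). MEKi/CD40 1 was low in Pcolce2 (5.83), MEKi/CD40 4 was high in Tead4 (4.83) and in the skeletal muscle score (7.14), and MEKi 3 was low in Coq8a (8.27). The cause of these single values was not tested.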

How the results depend on the processing

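None of the 51 named and called genes changed direction under any alternative run (Slc4a1 had 0 with values under 5 raised to 5), while the adipocyte list median turned from 1.16 to -0.09 without the 3 arrays highest in adipocyte genes. Of these 51 genes 27 were called in every fit without 1 array. The count of 1191 probe sets (479 positive, 712 negative) ranged from 618 to 1431 without 1 array (positive 241 to 559, negative 370 to 878). It moved by over 1.5 times without control 2 (695), 3 (633) or 5 (719), anti-CD40 1 (712), 2 (618), 3 (748) or 4 (768), or MEKi 2 (625), 4 (624) or 5 (761). With the replicate block it was 707 (298 and 409), 654 of them shared. Same-numbered arrays correlated at -0.377 to 0.279 (median -0.01), and only 2 of 18 arrays lay closest to one of their own number, so the numbers pair nothing. A block for 3 ranges of the title number, added after the data had been seen, gave 16 (11 and 5), with 1 of the 51 genes called. In the 12 tumours of the first and second ranges alone 56 (32 and 24) were called, 11 of them shared, a fit in which range and interaction cannot be told apart. A block that sets the third range against both others left each interaction as it was (932 called). For the rest, values under 5 raised to 5 gave 748 (250 and 498), array weights 1971 (887 and 1084) and a separate variance for each group, added after the data had been seen, 147 (56 and 91). Probe sets with a mean of at least 5 gave 1784 (628 and 1156). The positive share rose with cyclic loess (518 and 503) and with centring on measured probe sets (652 and 632). Quantile normalization gave 1524 (508 and 1016). Fits of 2 groups alone gave 0 calls for anti-CD40 Ab (3 in the model of all groups), 5231 for MEKi/CD40 against anti-CD40 Ab (8996) and 1127 against MEKi (4286), from fewer samples. Otherwise the cause was not tested. The floor of the array limits genes at background, where single effects are only bounds.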
